A study of Mus musculus with 9 samples.

Results

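The transcripts described here are 9 genes of the Wnt and beta-catenin programme of pericentral hepatocytes, the liver cells that surround the central vein. They are Glul, Oat, Slc1a2, Rhbg, Axin2, Lgr5, Tbx3, Nkd1 and Rnf43, chosen by name for their known place in this programme, out of 41388 genes in the deposited tables. The choice was made with earlier results of these data known. All 9 were found, 8 by matching the Ensembl identifier to its symbol and Rhbg by its exon coordinates, and all 9 passed the filter on low counts, as did 14741 genes in all.

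Polyadenylated RNA of whole liver was sequenced. All mice were C57BL/6J males, in 3 genotypes with 3 libraries each. DKO mice lacked Mttp in the liver and carried a germline deletion of Fabp1, MttpLKO mice lacked Mttp in the liver alone, and control mice were Mttp f/f, that is, they carried the floxed alleles. Mice of every genotype had received diethylnitrosamine, a liver carcinogen, by intraperitoneal injection at 25 mg per kg and 14 days of age, were fed standard chow and were killed at 6 months. Each library was a pool of RNA from 3 mice, so the spread between pools is narrower than that between single mice would be. The labels name liver without saying whether tumours were included. Mice that lacked Fabp1 alone and mice without the carcinogen were not analysed here, and the Cre driver is not given in the sources used here. The series title concerns how loss of Mttp, which encodes the protein that loads lipid onto very low density lipoprotein, and loss of Fabp1, which encodes the liver fatty acid-binding protein, bear on liver tumours.

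In the adult liver, endothelial cells of the central vein release Wnt ligands and R-spondins. These stabilise beta-catenin in the neighbouring hepatocytes, where beta-catenin joins TCF factors and switches on a pericentral set of genes that includes glutamine synthetase. The set captures ammonia as glutamine and holds feedback regulators of the pathway itself, and activating mutations of beta-catenin in liver tumours are known to raise many of the same genes.

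Library totals were 23268389 to 23429588 counts for DKO, 26362408 to 27918197 for MttpLKO and 24995426 to 27080442 for control, and the counts of the 9 genes ran from 93 for Lgr5 in 1 pool to 52347 for Glul in another. Levels are given as CPM, a gene's share of its library's counts with library sizes scaled by TMM, and as RPKM, which also divides by gene length, where different genes are compared. The label check held in every pool. Mttp averaged 4.52 CPM in DKO, 7.39 CPM in MttpLKO and 110 CPM in control, and Fabp1 averaged 65.3, 4120 and 6381 CPM in the same order. Hepatocyte markers dominated all libraries, with a summed level of 69378 to 102712 CPM in DKO, 98896 to 109501 CPM in MttpLKO and 93157 to 105495 CPM in control for 10 markers, none of which was at 0.

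MttpLKO pool 3 stood apart from the other libraries. It lay at 53.7 on the first principal component of log2 CPM, which held 22.3% of the variance, while the other 8 lay between -17.4 and 9.62. The 8 B and plasma cell markers, none at 0, summed to 637 CPM in that pool against 24.8 to 53.6 CPM in the DKO pools and 25.4 to 30.2 CPM in the control pools, and the other MttpLKO pools held 29.3 and 50.6 CPM.

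None of the 9 genes passed the test between any pair of genotypes. In edgeR's quasi-likelihood test, with p-values adjusted over all 14741 genes, 0 of 9 passed an adjusted p of 0.05 for MttpLKO vs control, where 0.346% of all genes passed. For DKO vs control 0 of 9 passed, against 0.332% of all genes, and for DKO vs MttpLKO 0 of 9 passed, against 0.400% (0.258% higher and 0.142% lower). With shares this small, a list of 9 genes with no call does not stand out from the rest. At an unadjusted edgeR p under 0.05 there were 2 of 9 genes for MttpLKO vs control, where 6.97% of all genes reached it, 1 of 9 for DKO vs control, with 11.2% of all genes, and 2 of 9 for DKO vs MttpLKO, with 9.10%. DESeq2 called 0 of 9 in each comparison, where it called 0.919% of all genes for MttpLKO vs control, 1.54% for DKO vs control and 1.32% for DKO vs MttpLKO, and limma-voom also called 0 of 9. The median log2 fold change of the 9 genes was 0.20 for MttpLKO vs control, beside 0.01 for all tested genes, and 0.06 for DKO vs control and -0.02 for DKO vs MttpLKO, beside 0.00 and -0.02 for all tested genes. Without MttpLKO pool 3 the medians of the 9 genes were 0.395 for MttpLKO vs control, 0.05 for DKO vs control and -0.24 for DKO vs MttpLKO, beside -0.01, -0.01 and 0.00 for all tested genes, with 0 called. In the same order 4, 1 and 4 of the 9 genes then had an unadjusted edgeR p under 0.05. The share of all genes at that p without the pool is not given here.

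**Figure D1:**
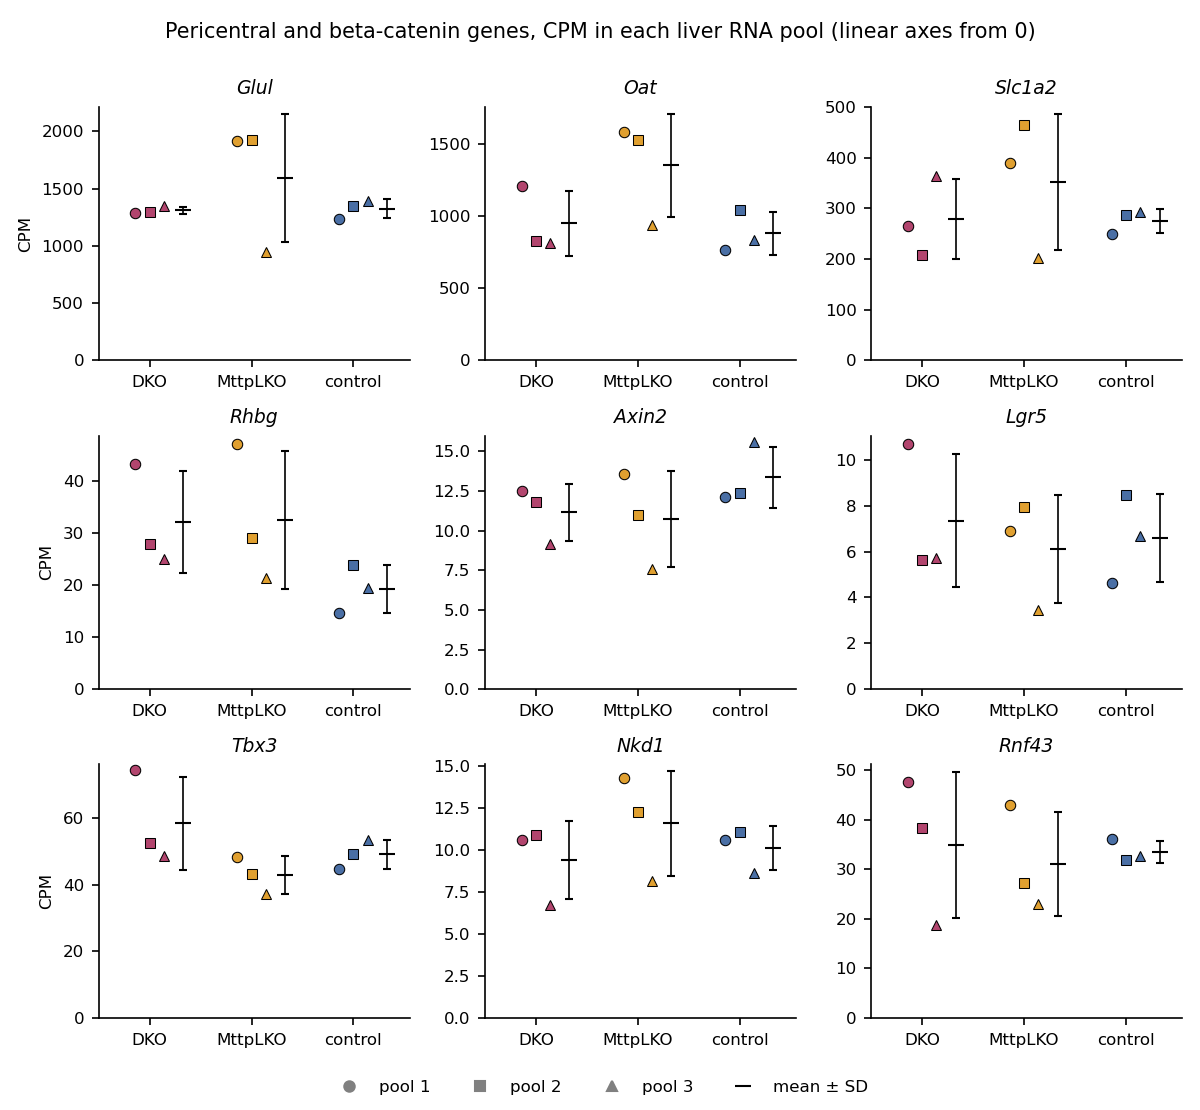
CPM of the 9 genes in each library, on linear axes that start at 0, with DKO, MttpLKO and control from left to right; symbols mark the 3 pools of a genotype and the bars give mean ± SD (n = 3). MttpLKO pool 3 (triangle) is the lowest of its genotype for all 9 genes, and for Glul the other MttpLKO pools, at 1912 and 1924 CPM, lie above all DKO and control pools.

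Oat and Glul, the enzymes of pericentral nitrogen handling in the set, were the most abundant. Per unit of length, Oat stood at 440 ± 104 RPKM in DKO, 627 ± 166 RPKM in MttpLKO and 408 ± 68.4 RPKM in control (SD, n = 3 each), and Glul at 395 ± 9.25, 480 ± 169 and 398 ± 24.7 RPKM in the same order. These genes overlapped in RPKM within every genotype. Slc1a2, at 21.3 RPKM in DKO, 26.8 RPKM in MttpLKO and 21.0 RPKM in control, was more than an order of magnitude below them. Rhbg (14.1, 14.3 and 8.49 RPKM), Tbx3 (10.9, 8.02 and 9.16 RPKM) and Rnf43 (5.32, 4.74 and 5.13 RPKM) followed, with Rhbg above Tbx3 in DKO and MttpLKO and below it in control, where their means lay closer than the spread between pools. The pathway's feedback genes were scarce, with Nkd1 at 2.10, 2.60 and 2.26 RPKM, Axin2 at 2.03, 1.95 and 2.42 RPKM and Lgr5 at 0.716, 0.594 and 0.643 RPKM, and Nkd1 and Axin2 were closer to each other than the spread between pools.

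Glul (chromosome 1, 153899944 to 153909723) encodes glutamine synthetase, which joins ammonia and glutamate in the last rows of hepatocytes before the central vein. It measured 1287, 1300 and 1346 CPM in the DKO pools, 1912, 1924 and 947 CPM in the MttpLKO pools, and 1234, 1344 and 1394 CPM in the control pools. DKO and control pools overlapped and were tight, while MttpLKO held both the highest values of the 9 libraries and the lowest. DKO vs control had a Glul log2 fold change of -0.01 ± 0.22 (95% interval -0.50 to 0.48, edgeR adjusted p = 0.993), MttpLKO vs control one of 0.27 ± 0.22 (-0.22 to 0.76, adjusted p = 0.925) and DKO vs MttpLKO one of -0.28 ± 0.22 (-0.77 to 0.21, adjusted p = 0.746), each ± SE. Without MttpLKO pool 3 the log2 fold change of Glul was 0.53 ± 0.12 for MttpLKO vs control (edgeR adjusted p = 0.146) and -0.55 ± 0.12 for DKO vs MttpLKO (adjusted p = 0.093), which did not pass either. In bulk tissue, fewer pericentral cells and less RNA per pericentral cell cannot be told apart.

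Oat (chromosome 7, 132557475 to 132576398) encodes ornithine aminotransferase, a mitochondrial enzyme that feeds glutamate to the same cells. It measured 1206, 824 and 815 CPM in DKO, 1585, 1527 and 938 CPM in MttpLKO, and 762, 1045 and 831 CPM in control. MttpLKO pools 1 and 2 were above every other library, and pool 3 lay within the control range. MttpLKO vs control had an Oat log2 fold change of 0.62 ± 0.22 (95% interval 0.12 to 1.11; edgeR unadjusted p = 0.0188, adjusted p = 0.565) and DKO vs MttpLKO one of -0.51 ± 0.22 (-1.0 to -0.02; unadjusted p = 0.0441, adjusted p = 0.533). For DKO vs control it was 0.11 (-0.38 to 0.60, edgeR adjusted p = 0.904). Without MttpLKO pool 3 Oat differed by 0.82 on the log2 scale for MttpLKO vs control and by -0.71 for DKO vs MttpLKO, with edgeR adjusted p-values of 0.186 and 0.195.

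Slc1a2 (chromosome 2, 102658659 to 102790784) encodes the high-affinity glutamate transporter that supplies glutamine synthetase with substrate. It measured 266, 208 and 364 CPM in DKO, 389, 464 and 203 CPM in MttpLKO, and 249, 286 and 292 CPM in control. Its order over the MttpLKO pools was that of Glul, with pool 3 lowest of all 9 libraries, and all genotypes overlapped. The log2 fold change was 0.02 for DKO vs control (95% interval -0.58 to 0.62, edgeR adjusted p = 0.993), 0.35 for MttpLKO vs control (-0.25 to 0.95, adjusted p = 0.912) and -0.33 for DKO vs MttpLKO (-0.94 to 0.27, adjusted p = 0.759). The sign for DKO vs control turned under upper quartile scaling and under limma-voom.

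Rhbg, which encodes an ammonia transporter of the cell membrane, had the largest fold change of the 9 genes against control. It measured 43.4, 27.9 and 25.1 CPM in DKO, 47.2, 29.1 and 21.4 CPM in MttpLKO, and 14.6, 23.9 and 19.4 CPM in control. All 3 DKO pools were above all 3 control pools, while MttpLKO pool 3 lay within the control range. The log2 fold change was 0.74 ± 0.30 for DKO vs control (95% interval 0.08 to 1.39; edgeR unadjusted p = 0.0306, adjusted p = 0.389) and 0.75 ± 0.30 for MttpLKO vs control (0.10 to 1.41; unadjusted p = 0.0271, adjusted p = 0.63). DKO vs MttpLKO was -0.02 (-0.66 to 0.63, edgeR adjusted p = 0.995). Rhbg was the only one of the 9 genes whose DKO and control pools did not overlap, where 18.1% of all tested genes had none. No gene of the 9 separated MttpLKO from control, where 14.3% of all genes did. The deposited feature counted here (chromosome 3, 88242874 to 88287210) holds all 10 annotated Rhbg exons, which end at 88254709, and 4 further exons, one of them shared with Tsacc, so reads of other transcripts can be in its count.

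Among the feedback regulators, Axin2 (chromosome 11, 108920349 to 108950783) encodes the scaffold that rebuilds the beta-catenin destruction complex and is the most widely used readout of pathway activity. It measured 12.5, 11.8 and 9.14 CPM in DKO, 13.6, 11 and 7.56 CPM in MttpLKO, and 12.1, 12.4 and 15.6 CPM in control. The genotypes overlapped, and the control mean was the highest. Axin2 had a log2 fold change of -0.26 ± 0.21 for DKO vs control (95% interval -0.72 to 0.21, edgeR adjusted p = 0.709), -0.32 ± 0.21 for MttpLKO vs control (-0.78 to 0.14, adjusted p = 0.878) and 0.06 ± 0.21 for DKO vs MttpLKO (-0.41 to 0.53, adjusted p = 0.962). Rhbg and Axin2 thus had values of opposite sign against control in both comparisons, none of which passed.

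Nkd1 (chromosome 8, 88521344 to 88594887) encodes an inhibitor that binds Dishevelled. It measured 10.6, 10.9 and 6.72 CPM in DKO, 14.3, 12.3 and 8.19 CPM in MttpLKO, and 10.6, 11.1 and 8.61 CPM in control, with overlap in every comparison. Nkd1 had a log2 fold change of -0.10 for DKO vs control, 0.20 for MttpLKO vs control and -0.31 for DKO vs MttpLKO, with edgeR adjusted p-values of 0.914, 0.961 and 0.738. Nkd1 lies in a stretch of chromosome 8 where, within 10 Mb on either side, 7 of 164 other tested genes (4.27%) were called for MttpLKO vs control, 0 for DKO vs control and 3 (1.83%) for DKO vs MttpLKO.

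Rnf43 (chromosome 11, 87662722 to 87735539) encodes the membrane ubiquitin ligase that removes Frizzled receptors. It measured 47.6, 38.4 and 18.7 CPM in DKO, 42.9, 27.2 and 23.1 CPM in MttpLKO, and 36.1, 31.9 and 32.8 CPM in control. The control pools were within a narrow range that the pools of both other genotypes spanned on either side. Rnf43 had a log2 fold change of 0.06 for DKO vs control, -0.11 for MttpLKO vs control and 0.17 for DKO vs MttpLKO, with edgeR adjusted p-values of 0.969, 0.988 and 0.909. Its sign for DKO vs control turned under limma-voom.

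Lgr5 (chromosome 10, 115450311 to 115587780), the receptor of R-spondins that marks hepatocytes next to the central vein, was the scarcest. It measured 10.7, 5.62 and 5.73 CPM in DKO, 6.91, 7.94 and 3.45 CPM in MttpLKO, and 4.65, 8.46 and 6.69 CPM in control. The ranges overlapped throughout, and the intervals were the widest of the set: -0.61 to 0.92 around a log2 fold change of 0.16 for DKO vs control, -0.88 to 0.65 around -0.12 for MttpLKO vs control, and -0.49 to 1.03 around 0.27 for DKO vs MttpLKO, with edgeR adjusted p-values of 0.912, 0.99 and 0.862.

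Tbx3 (chromosome 5, 119670669 to 119684724), a T-box transcription factor known as a beta-catenin target in liver, measured 74.4, 52.5 and 48.6 CPM in DKO, 48.5, 43.4 and 37.2 CPM in MttpLKO, and 44.7, 49.4 and 53.4 CPM in control. All 3 DKO pools were above all 3 MttpLKO pools, at the margin only narrowly, and both overlapped control. Tbx3 was the only one of the 9 genes with no overlap for DKO vs MttpLKO, where 11.5% of all tested genes had none. The log2 fold change was 0.44 ± 0.16 for DKO vs MttpLKO (95% interval 0.08 to 0.80; edgeR unadjusted p = 0.0204, adjusted p = 0.432), 0.25 for DKO vs control (-0.11 to 0.61, adjusted p = 0.616) and -0.19 for MttpLKO vs control (-0.55 to 0.17, adjusted p = 0.928).

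**Figure D2:**
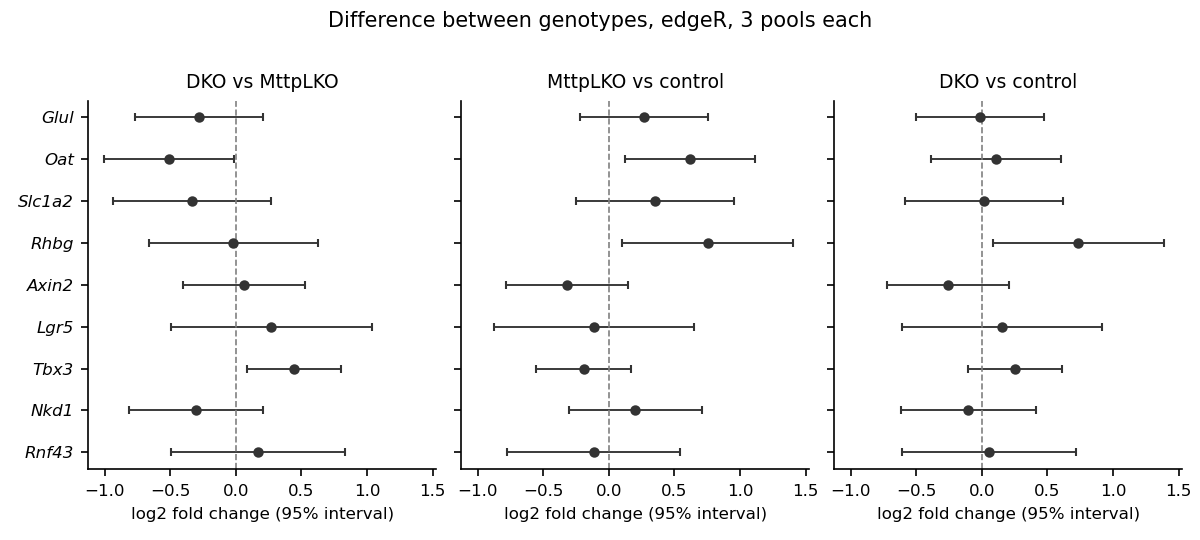
Log2 fold change of each gene (point) with its 95% interval (bar) from edgeR, 3 pools per genotype, in a panel per comparison; the dashed line marks no difference. The intervals of Oat and Rhbg for MttpLKO vs control, of Rhbg for DKO vs control, and of Oat and Tbx3 for DKO vs MttpLKO lie off 0, and no adjusted p passed 0.05.

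Parts of 4 genes overlap annotated genes on the opposite strand: Glul, Slc1a2, Axin2 and Tbx3. The overlap covers 116 of 3323 exonic bases of Glul, 189 of 13133 of Slc1a2, 209 of 5506 of Axin2 and 115 of 5365 of Tbx3. The strand setting of the counting is not given in the sources used here. Whether reads of each gene and its partner were kept apart within these overlaps is therefore not known. Glul also shares 93 exonic bases with a microRNA gene on the same strand.

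Over the MttpLKO pools the coefficient of variation of the 9 genes ran from 13.2% (Tbx3) to 40.6% (Rhbg) with a median of 33.6%, while the median of all tested genes there was 14.7%. Without pool 3 the MttpLKO median was 10.7% for the 9 genes and 11.2% for all tested genes, over 2 pools. The wider median there thus rested on that pool. The spread of single genes did not always do so, with Rhbg at 33.5% and Rnf43 at 31.6% without it. In DKO the members' median was 24.6% and that of all genes 15.9%, and in control the values were 13.0% and 10.2%. Glul had the smallest coefficient of variation of the set in DKO (2.34%) and in control (6.19%) and 35.2% in MttpLKO.

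All 9 genes had their lowest MttpLKO value in pool 3, while 36.4% of all tested genes did, and 5 of them (Glul, Slc1a2, Axin2, Lgr5 and Tbx3) had there their lowest value of all 9 libraries. The median of the 9 log2 deviations from each gene's mean was -0.47 in that pool and 0.42 and 0.28 in the other MttpLKO pools. In DKO the medians were 0.24, 0.03 and -0.15, and in control -0.16, 0.00 and 0.02. Of the 20 other pericentral genes 8 were also lowest of all libraries in MttpLKO pool 3, with a median deviation of -0.31, while 0 of the 20 periportal genes were lowest there, with a median deviation of 0.12. Over all tested genes 12.7% were lowest in that pool. Other lists held such genes too, with 5 of 9 tested Wnt inhibitors and 3 of 10 hepatocyte markers. Of 18 tested genes of glutamine and ammonia metabolism 5 were lowest there, and of 18 genes of the destruction complex 1. Without pool 3 the log2 fold change for MttpLKO vs control was 0.62 for Slc1a2, 0.98 for Rhbg, 0.40 for Nkd1, 0.16 for Lgr5, 0.05 for Rnf43, -0.10 for Tbx3 and -0.13 for Axin2, so that the sign of Lgr5 and Rnf43 turned, and edgeR adjusted p-values ran from 0.317 (Rhbg) upwards. Over all libraries left out in turn, the lowest value of each of the 9 genes for MttpLKO vs control came without MttpLKO pool 1 or without pool 2. Without pool 2 the log2 fold change for MttpLKO vs control was 0.11 for Glul and 0.10 for Slc1a2, and without pool 1 it was 0.39 for Rhbg, 0.02 for Nkd1 and 0.48 for Oat. For DKO vs MttpLKO without MttpLKO pool 3 Slc1a2 stood at -0.61 (edgeR adjusted p = 0.308) and Tbx3 at 0.35 (adjusted p = 0.557).

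Several other measures moved with that pool. The 6 central vein endothelium markers, none at 0, summed to 17.5 CPM there, the lowest of the 9 libraries, and Wnt2 and Wnt9b, the Wnt ligands of that endothelium, both read 0.778 CPM there against 2.41 and 2.39 CPM of Wnt2 and 2.83 and 1.80 CPM of Wnt9b in the other MttpLKO pools. The 10 stellate cell and matrix markers summed to 442 CPM there, against 241 and 276 CPM in the other MttpLKO pools, and the 8 bile duct markers summed to 160 CPM there, against 109 and 110 CPM. The 10 proliferation genes summed to 73.3 CPM there, close to the 71.4 CPM of MttpLKO pool 1 and above the 59.0 CPM of pool 2, while the median log2 deviation of the 8 tested ones was 0.96 there and -0.58 and -0.11 in pools 1 and 2. Over the MttpLKO pools the 8 macrophage markers, none at 0, ran the other way from the 9 genes. They summed to 36.2 and 42.5 CPM in pools 1 and 2 and to 122 CPM in pool 3. In the DKO pools they summed to 124, 136 and 60.4 CPM. DKO pool 3 was also lowest of its genotype for 6 of the 9 genes. In the control pools they summed to 117, 94.3 and 84.6 CPM. Control pool 1 was lowest of its genotype for 7 of the 9 genes. The part of all these measures in the members' values was not tested.

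**Figure D3:**
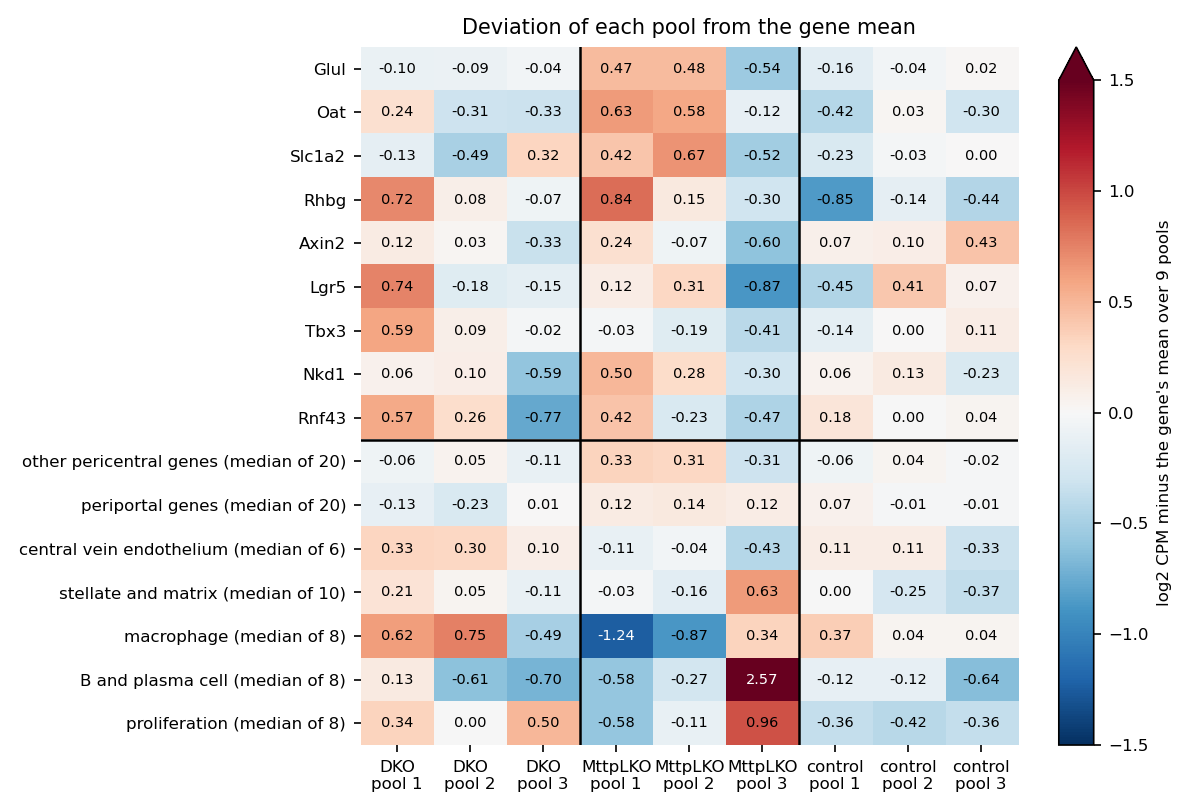
Log2 CPM of each library minus the gene's mean over the 9 libraries, for the 9 genes (above the line) and as the median of 7 gene lists (below it); columns run from DKO through MttpLKO to control. The column of MttpLKO pool 3 is below 0 for all 9 genes and for the other pericentral genes, and at 2.57 for the B and plasma cell markers.

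Over the 9 libraries 34 of 36 pairs of the 9 genes had a positive Pearson r of log2 CPM, with a median of 0.50 and a range of -0.16 to 0.87, while 50% of all pairs of tested genes had a positive r. Over the 8 libraries other than MttpLKO pool 3 it was 30 of 36 pairs, with a median of 0.31 and a range of -0.45 to 0.84, again beside 50% of all pairs. In exact permutation tests 7 pairs had an unadjusted p under 0.05 and 0 had an adjusted p under 0.05 for r over the 36 pairs. Likeness was planned as a description. The permutations ran over all 9 libraries regardless of genotype, so a genotype difference shared by a pair counts as likeness in these p-values. Glul and Slc1a2 were the most alike pair. Their r was 0.87 (exact permutation p = 0.00206, adjusted p = 0.0741) and their Spearman rho 0.93 (exact permutation p = 0.00075, adjusted p = 0.027). Their r was 0.66 without the 2 libraries farthest from the median of Glul, which were MttpLKO pools 1 and 2. It was 0.85 after each genotype's mean was taken out, and 0.83 without MttpLKO pool 3. Glul and Oat had an r of 0.72 (exact permutation p = 0.0265, adjusted p = 0.163), which was 0.724 after each genotype's mean was taken out and 0.845 without MttpLKO pool 3. Without MttpLKO pools 1 and 2, the 2 libraries farthest from the median of Glul, it was -0.07. MttpLKO pool 3 stayed in that set, at -0.543 from the mean of Glul, while the others ran from -0.161 to 0.015. The r of Glul and Oat thus depended on which MttpLKO pools were included. All points share the library's depth scaling and pooled mice.

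Over all tested genes, those most like Glul by Pearson r over the 9 libraries were Zfand5 (0.95), Rdh9 (0.94), Gm47283 (0.92), Rmdn2 (0.92) and Abcc2 (0.91), and without MttpLKO pool 3 their r was 0.92, 0.92, 0.89, 0.96 and 0.85, at ranks 23, 19, 42, 5 and 94. The 20 other pericentral genes all had a positive r with Glul, with a median of 0.72, while the median over all 14740 other tested genes was 0.01 and that of the 20 periportal genes 0.06. Among them Aldh1a1, a retinal dehydrogenase, ranked 12 of 14740 and Cyp2e1, the ethanol-metabolising cytochrome, ranked 17, and without MttpLKO pool 3 they ranked 37 and 188. Without MttpLKO pool 3 all 20 were still positive, with a median of 0.68, and the periportal median was 0.38. The other 8 members had a median r with Glul of 0.54, and of 0.36 without that pool, with 6 of 8 positive. The 8 macrophage markers all had a negative r, with a median of -0.76, and -0.84 without that pool. The 10 sinusoidal endothelium markers also all had a negative r, with medians of -0.56 and -0.61. Over the 9 libraries the 8 B and plasma cell markers (median -0.70) and the 10 stellate cell and matrix markers (median -0.46) were all negative too. Without that pool their medians were -0.34 and 0.13.

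RefSeq promoters (GRCm38.p6, 250 bases before to 50 after a gene's start) were at hand for 6 of the 9 genes, 7 promoters in all. They were searched on both strands for CTTTGAT, the core that TCF and LEF factors are known to bind. It occurred in 1 of 7, that of Slc1a2, and in 1225 of 32851 promoters of the same length (3.73%). The promoters of Glul (chr1:153899679-153899978, plus strand) and Slc1a2 (chr2:102706188-102706487, plus strand, a start inside the deposited span of the gene) are shown because these genes were the most alike pair over the libraries. Capitals mark the match, here on the minus strand and read as ATCAAAG, which starts at position -207 from the Slc1a2 start.
Glul: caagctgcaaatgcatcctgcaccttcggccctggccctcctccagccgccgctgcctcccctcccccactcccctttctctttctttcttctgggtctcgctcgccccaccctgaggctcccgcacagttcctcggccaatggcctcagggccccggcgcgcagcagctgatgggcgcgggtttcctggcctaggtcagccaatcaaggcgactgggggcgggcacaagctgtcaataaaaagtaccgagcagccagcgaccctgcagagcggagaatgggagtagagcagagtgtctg
Slc1a2: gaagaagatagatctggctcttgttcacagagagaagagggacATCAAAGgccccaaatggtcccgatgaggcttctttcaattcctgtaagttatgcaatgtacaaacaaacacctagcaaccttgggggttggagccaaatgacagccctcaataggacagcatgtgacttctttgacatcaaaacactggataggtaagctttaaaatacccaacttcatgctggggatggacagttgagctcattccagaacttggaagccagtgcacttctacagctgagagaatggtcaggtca
The Glul window held no match and was 64.3% G and C, the Slc1a2 window was 45.7%, and the median of all promoters was 52.7%. A match of these letters is a description of the window and does not show a bound site.

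The upstream genes of the pathway were next examined in lists by role. Of 15 genes of Wnt ligands, R-spondins, Norrin (Ndp) and ligand release (Wls and Porcn) 11 were tested, and 1 was called, for MttpLKO vs control. Wnt5b (chromosome 6, 119432531 to 119544347), a ligand best known for signalling without beta-catenin, measured 8.0, 5.66 and 5.69 CPM in DKO, 8.98, 8.01 and 7.34 CPM in MttpLKO, and 3.76, 3.50 and 4.45 CPM in control. Every DKO and MttpLKO pool lay above every control pool. Wnt5b rose 2.08-fold in MttpLKO over control (log2 fold change 1.05 ± 0.19, edgeR adjusted p = 0.0445), and DKO vs control did not pass (0.73, adjusted p = 0.184), though it did with DESeq2 (adjusted p = 0.0436). The call was lost when any one of 8 libraries was left out, with edgeR adjusted p-values of 0.0511 to 0.263, and kept only without DKO pool 1. Within 10 Mb of Wnt5b 7 of 179 other genes (3.91%) were also called for MttpLKO vs control.

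The central vein ligands and the R-spondin made there were scarce and did not pass. Rspo3, the main R-spondin of the central vein, measured 7.31, 8.81 and 5.82 CPM in DKO, 5.16, 5.07 and 4.74 CPM in MttpLKO, and 5.13, 7.0 and 6.15 CPM in control, so that the DKO pools lay above the MttpLKO pools (log2 fold change 0.55, edgeR adjusted p = 0.377). Wnt2 averaged 2.88, 1.86 and 2.51 CPM in DKO, MttpLKO and control, and Wnt9b averaged 2.57, 1.80 and 1.81 CPM. Without pool 3 the MttpLKO means were 2.40 CPM for Wnt2 and 2.31 CPM for Wnt9b, at a log2 fold change of 0.26 and 0.15 for DKO vs MttpLKO (edgeR adjusted p = 0.822 and 0.922). All 6 central vein endothelium markers had higher values in DKO than in MttpLKO, with a median log2 fold change of 0.48 beside -0.02 for all genes, 0 of 6 called and 1 at an unadjusted edgeR p under 0.05. Without MttpLKO pool 3 all 6 were still higher, with a median of 0.31 beside 0.00 for all genes, and again 0 were called and 1 had an unadjusted edgeR p under 0.05. Their summed level was 25.8 to 30.3 CPM in DKO, 17.5 to 22.5 CPM in MttpLKO and 20.5 to 24.9 CPM in control. Higher values in DKO than in MttpLKO were not particular to these markers. Of 10 sinusoidal endothelium markers 8 were higher (median 0.14), and all 10 without MttpLKO pool 3 (median 0.27). Of 8 macrophage markers 7 were higher (median 1.0), and all 8 without that pool (median 1.70). Of these 8, 0 were called over all libraries and 1 without that pool, with 4 and 7 at an unadjusted edgeR p under 0.05. Of 10 stellate cell and matrix markers 0 were higher, and 6 without that pool.

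Of 15 Wnt receptors and co-receptors 12 were tested, and 1 was called in each comparison with control. Lrp6 (chromosome 6, 134446476 to 134566965), the co-receptor that starts the signal with Frizzled, measured 94.2, 75.5 and 118 CPM in DKO, 99.3, 111 and 95.7 CPM in MttpLKO, and 53.7, 52.9 and 54.4 CPM in control. All pools of both deleted genotypes were above all control pools. Lrp6 rose 1.79-fold in DKO over control (log2 fold change 0.84 ± 0.15, edgeR adjusted p = 0.0446) and 1.90-fold in MttpLKO over control (0.93 ± 0.15, adjusted p = 0.0323), and these comparisons share the control pools. DKO and MttpLKO differed by -0.09 (edgeR adjusted p = 0.895).

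The Lrp6 calls depended on single libraries. The MttpLKO vs control call was lost without MttpLKO pool 1 or 2 (edgeR adjusted p = 0.052 and 0.105) or without control pool 1, 2 or 3 (0.101, 0.16 and 0.14). The DKO vs control call was lost without DKO pool 1 or 3 (edgeR adjusted p = 0.13 and 0.0937), MttpLKO pool 2 (0.0508) or control pool 1, 2 or 3 (0.112, 0.241 and 0.216), and with limma-voom (0.056). The log2 fold change stayed between 0.66 and 0.99 whichever library was left out. Around Lrp6, 10 of 131 other genes within 10 Mb (7.63%) were called for MttpLKO vs control and 1 (0.763%) for DKO vs control. In all, 18 of the 51 genes called for MttpLKO vs control and 5 of the 49 called for DKO vs control were on chromosome 6. Fabp1, deleted in DKO alone, lies on the same chromosome, and 0 of 50 other tested genes within 10 Mb of it were called in either comparison.

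Other receptors did not pass. Lrp5, the partner co-receptor, averaged 92.6 CPM in DKO, 74.5 CPM in MttpLKO and 71.8 CPM in control (log2 fold change 0.37 for DKO vs control, edgeR adjusted p = 0.333). Lgr4, the R-spondin receptor found on hepatocytes in general, averaged 37.0, 42.4 and 40.6 CPM, and Znrf3, the ligase paired with Rnf43, averaged 18.1, 19.0 and 18.4 CPM in the same order. Fzd7, a Frizzled receptor, measured 24.1, 35.8 and 18.5 CPM in DKO, 12.0, 10.9 and 14.7 CPM in MttpLKO, and 14.1, 13.8 and 14.0 CPM in control. Its DKO pools were above all others, at a log2 fold change of 1.06 ± 0.21 for DKO vs MttpLKO (edgeR adjusted p = 0.0803), 0.90 for DKO vs control (adjusted p = 0.133) and -0.16 for MttpLKO vs control (adjusted p = 0.968). Fzd7 passed for DKO vs MttpLKO with DESeq2 (adjusted p = 0.000644) and without DKO pool 3 in edgeR (adjusted p = 0.0169).

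Of 17 secreted and intracellular inhibitors 9 were tested and 0 were called. Dkk4, a secreted inhibitor of the co-receptors and a known pathway target, measured 0.563, 0.681 and 2.37 CPM in DKO, 0.229, 0.184 and 0.0741 CPM in MttpLKO, and 0.768, 0.301 and 0.253 CPM in control. The MttpLKO pools were below all others, with 2 to 6 counts each (log2 fold change 2.85 ± 0.71 for DKO vs MttpLKO, edgeR adjusted p = 0.187, DESeq2 adjusted p = 0.0164). Dkk3, of the same family, had a log2 fold change of 0.52 for MttpLKO vs control (edgeR adjusted p = 0.689).

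No gene of the intracellular machinery passed. All 18 genes of the destruction complex and its partners were tested and 0 were called, with medians of 0.04 for DKO vs control, 0.05 for MttpLKO vs control and -0.01 for DKO vs MttpLKO on the log2 scale. Ctnnb1, which encodes beta-catenin itself, averaged 114 ± 18.2 CPM in DKO, 115 CPM in MttpLKO and 102 CPM in control, with edgeR adjusted p-values of 0.709 for DKO vs control, 0.911 for MttpLKO vs control and 0.991 for DKO vs MttpLKO. Its RNA level does not show the protein's stability, through which the pathway acts. Apc averaged 27.1, 29.5 and 28.4 CPM and Axin1, the constitutive scaffold, 20.8, 19.5 and 18.0 CPM in DKO, MttpLKO and control. The smallest p-values of the list were those of Apc2 for MttpLKO vs control (log2 fold change -1.11, edgeR adjusted p = 0.576), Dvl1, a Dishevelled, for DKO vs control (-0.34, adjusted p = 0.284) and Gsk3a, the kinase, for DKO vs MttpLKO (0.29, adjusted p = 0.508).

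All 16 nuclear partners were tested and 0 were called. Tle2, a corepressor that binds TCF, measured 35.0, 39.6 and 27.1 CPM in DKO, 47.0, 52.6 and 46.2 CPM in MttpLKO, and 46.2, 47.9 and 55.7 CPM in control. Its DKO pools were below all others (log2 fold change -0.56 for DKO vs control, edgeR adjusted p = 0.165, DESeq2 adjusted p = 0.0438, and -0.52 for DKO vs MttpLKO, edgeR adjusted p = 0.232). Tcf7l2, the main TCF factor of hepatocytes, averaged 38.5, 31.1 and 35.9 CPM in DKO, MttpLKO and control (log2 fold change 0.31 for DKO vs MttpLKO, edgeR adjusted p = 0.463). Ctnnbip1, an inhibitor of the beta-catenin and TCF contact, had a log2 fold change of -0.49 for MttpLKO vs control (edgeR adjusted p = 0.615).

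The 20 other pericentral genes were all tested and 0 were called. Their values were higher in MttpLKO than in control for 16 of 20 (median log2 fold change 0.17 beside 0.01 for all genes) and lower in DKO than in MttpLKO for 17 of 20 (median -0.19 beside -0.02). These counts without MttpLKO pool 3 were 19 of 20 (median 0.335 beside -0.01) and 18 of 20 (median -0.37 beside 0.00), with 0 called. At an unadjusted edgeR p under 0.05 there were 1 and 3 of 20 over all libraries. Without that pool there were 10 of 20 in each of these comparisons, beside 4 and 7 of the 20 periportal genes. The share of all genes at that p without the pool is not given here. Cyp2e1 averaged 7754 ± 875 CPM in DKO, 7847 ± 2303 CPM in MttpLKO and 6807 ± 173 CPM in control. Cyp1a2, a cytochrome of the same zone, ran the other way against control, with 732, 806 and 867 CPM in DKO, 1108, 1040 and 711 CPM in MttpLKO, and 1261, 1205 and 1067 CPM in control. All its DKO pools were below all control pools (log2 fold change -0.56 ± 0.17, edgeR adjusted p = 0.242). Slc13a3, a dicarboxylate transporter, had a log2 fold change of 0.42 for MttpLKO vs control (edgeR adjusted p = 0.652), and Gstm3, a glutathione transferase, one of -0.62 for DKO vs MttpLKO (adjusted p = 0.397).

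The 20 periportal genes, which mark the opposite end of the lobule, were all tested, and 1 was called, for DKO vs MttpLKO. Etnppl (chromosome 3, 130617448 to 130635750), an ethanolamine phosphate lyase, measured 94.2, 80.7 and 59.6 CPM in DKO, 162, 147 and 170 CPM in MttpLKO, and 127, 110 and 96.7 CPM in control. It fell 2.04-fold in DKO relative to MttpLKO (log2 fold change -1.03 ± 0.16, edgeR adjusted p = 0.0233). The call was lost without DKO pool 2 (edgeR adjusted p = 0.0954), MttpLKO pool 1, 2 or 3 (0.071, 0.0862 and 0.0511) or control pool 2 (0.0538). The list's values were lower in DKO than in MttpLKO for 17 of 20 genes, the same count as for the other pericentral genes, with a median of -0.28, and for 15 of 20 without MttpLKO pool 3, with the same median. Fbp1, a gluconeogenic phosphatase, had a log2 fold change of 0.51 for MttpLKO vs control (edgeR adjusted p = 0.39).

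Of 20 genes of glutamine, glutamate and ammonia metabolism outside the 9, 18 were tested, and 1 was called, for MttpLKO vs control. Asns (chromosome 6, 7675169 to 7693254), asparagine synthetase, which spends glutamine, measured 33.6, 15.3 and 20.2 CPM in DKO, 43.6, 26.6 and 21.4 CPM in MttpLKO, and 4.73, 9.40 and 4.27 CPM in control. All pools of both deleted genotypes were above all control pools. Asns rose 4.97-fold in MttpLKO over control (log2 fold change 2.31 ± 0.38, edgeR adjusted p = 0.0372), and DKO vs control stood at 1.91 (adjusted p = 0.0868), which passed without MttpLKO pool 3 (edgeR adjusted p = 0.0461) and with DESeq2 (2.6e-05). The MttpLKO vs control call was lost without DKO pool 2 (edgeR adjusted p = 0.058), MttpLKO pool 1 or 2 (0.0804 and 0.0799) or control pool 1 or 3 (0.143 and 0.176). Got1, the cytosolic aspartate aminotransferase, averaged 284 CPM in DKO, 541 CPM in MttpLKO and 190 CPM in control (log2 fold change 1.51 for MttpLKO vs control, edgeR adjusted p = 0.135, and -0.93 for DKO vs MttpLKO, adjusted p = 0.4).

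**Figure D4:**
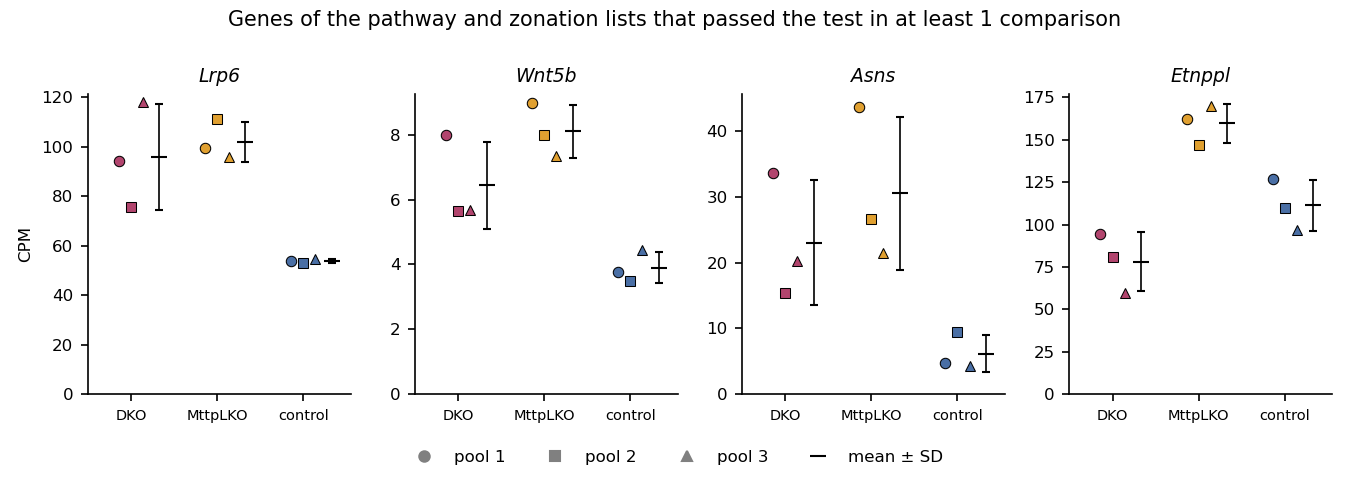
CPM of the 4 genes of the pathway and zonation lists that passed edgeR's test in at least 1 comparison, by library, on linear axes that start at 0; bars give mean ± SD (n = 3). Lrp6, Wnt5b and Asns lie above all control pools in both DKO and MttpLKO, and Etnppl lies lowest in DKO.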

How the data were processed

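Liver RNA of 9 pools was measured, 3 per genotype and 3 mice per pool, after oligo(dT) selection, per the labels. Each deposited table held whole-number counts per gene, not normalized, and the CPM and RPKM the authors computed from them, per the file headers; both were recomputed within 5.1e-11 CPM and 4.7e-11 RPKM and used in no test. The submitters' processing notes list STAR 2.0.4b, featureCounts 1.4.5 and Subread without roles. Genome build, annotation and strandedness: not given in the sources used here. Symbols were found for 40255 of 41388 identifiers (97.26%). Coordinates are the deposited ones.

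The 9 genes, all lists and the rule for named genes were chosen with earlier results of these data known. Named are the 9 genes, Mttp, Fabp1, 13 fixed pathway and zonation genes, up to 3 called genes per list and comparison (otherwise the one with the smallest p), and the 5 genes most like Glul. Tsacc and Aldh1a1 fall outside the rule and were chosen after their values were seen.

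Counts were filtered with filterByExpr in edgeR 4.0.16 (R 4.3.3; minimum count 10), scaled by TMM and put to the quasi-likelihood F test of edgeR in 1 fit of 3 genotype means over 9 libraries, with Benjamini-Hochberg adjustment over 14741 genes and a threshold of 0.05. Between pools the common dispersion of 0.0335 equals a biological variation of 18.3%. Each SE was derived as the absolute log2 fold change divided by the square root of the F statistic, and intervals from SE and t quantiles. Intervals and SE cover the spread between pools. That the pools hold different mice rests on the labels. The test was first run on simulated data. Alternatives were RLE and upper quartile scaling, a CPM filter or no low-count filter, limma-voom (limma 3.58.1), DESeq2 1.42.0, the 6 compared libraries alone, a replicate block, removal of the 20 most abundant genes, and leaving out each library in turn.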

Additional observations from a re-analysis of the deposited data

How the results depend on the processing

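In all 18 alternatives 0 of the 9 genes were called in any comparison. The smallest adjusted p-values were 0.093 (Glul, DKO vs MttpLKO) and 0.146 (Glul, MttpLKO vs control), both without MttpLKO pool 3, and 0.196 (Rhbg, DKO vs control, no low-count filter). Of 486 alternative fold changes of the 9 genes 456 kept their direction and 30 turned. Counts over all genes moved more. For MttpLKO vs control, 51 genes were called, 166 with DESeq2 and 171 without a low-count filter; for DKO vs control 49, and 256, 201 and, in the 6 compared libraries alone, 78; for DKO vs MttpLKO 59, and 206, 180 and 34. The cause was not tested. Leaving out a library gave 14 to 54, 15 to 100 and 22 to 73 for MttpLKO vs control, DKO vs control and DKO vs MttpLKO. The count for MttpLKO vs control was over 1.5 times lower without DKO pool 2 (29), MttpLKO pool 2 (19) or control pool 1, 2 or 3 (25, 14 and 14), that for DKO vs control without DKO pool 1 or 3 (28 and 20) or control pool 1, 2 or 3 (23, 15 and 15), while it was 100 without MttpLKO pool 3, and that for DKO vs MttpLKO without DKO pool 2 (37) or MttpLKO pool 2 (22). The 9 genes had 0 calls each time.

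The replicate numbers did not pair the pools: same-numbered pools correlated at -0.24 to 0.07 in their deviations from the genotype means. A fit with the replicate block called 35, 40 and 43 genes and 0 of the 9; Lrp6 had adjusted p-values of 0.0588 for MttpLKO vs control and 0.0885 for DKO vs control in it, and Wnt5b 0.0859.

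Signs of log2 fold changes turned in the following: Wnt9b, MttpLKO vs control, 0.001 without the 20 most abundant genes; Slc1a2, DKO vs control, -0.016 (limma-voom) and -0.008 (upper quartile); Rnf43, DKO vs control, -0.041 (limma-voom) and -0.039 (block); DKO vs MttpLKO, Rhbg 0.021 and 0.001 and Cyp2e1 0.025 and 0.005 (limma-voom, block). When a library was left out, values ran across 0 for DKO vs control in Apc (-0.19 to 0.147), Glul (-0.046 to 0.02), Lgr4 (-0.262 to 0.0), Lgr5 (-0.219 to 0.37), Nkd1 (-0.209 to 0.085), Oat (-0.102 to 0.248), Rnf43 (-0.235 to 0.352), Slc1a2 (-0.223 to 0.2), Wnt2 (-0.053 to 0.329) and Znrf3 (-0.094 to 0.035). For MttpLKO vs control they did in Lgr4 (-0.064 to 0.118), Lgr5 (-0.352 to 0.162), Lrp5 (-0.065 to 0.154), Rnf43 (-0.42 to 0.053), Wnt9b (-0.487 to 0.349) and Znrf3 (-0.048 to 0.138). For DKO vs MttpLKO they did in Apc (-0.236 to 0.093), Axin2 (-0.136 to 0.287), Ctnnb1 (-0.114 to 0.118), Cyp2e1 (-0.239 to 0.161), Lgr5 (-0.104 to 0.523), Lrp6 (-0.259 to 0.068), Rhbg (-0.298 to 0.366), Rnf43 (-0.121 to 0.493) and Znrf3 (-0.168 to 0.036). Correlations, list medians, means and spreads without MttpLKO pool 3 were added after the data were seen. The calls of Asns and Etnppl were lost in the 6 compared libraries alone (adjusted p = 0.0572 and 0.0746), as was that of Lrp6 for DKO vs control (0.0548), and limma-voom lost that of Wnt5b (0.0583).

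Precision limits the account: with 3 pools a genotype, the 95% intervals of Lgr5, Rhbg and Rnf43 reach past 0.6 on the log2 scale in both directions in at least 1 comparison each.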
